A study of Mus musculus with 9 samples.

Results

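Genes of the endoplasmic reticulum (ER) stress response and of the heat shock response were followed in mouse colonic mucosa: 35 genes, described as 15 ER chaperones and folding enzymes, 7 transcription factors and targets of the unfolded protein response, 11 cytosolic heat shock proteins and cochaperones, and 2 mitochondrial chaperonins. They were chosen by gene symbol, and a probe was assigned to one of them when its RefSeq accession mapped to that symbol. Of the 35 genes 34 were measured, by 59 probes, among 21964 features tested over the whole array, 15346 of which carried a gene name. No probe of the array was named Pdia3 by accession, so this disulfide isomerase was not analysed here.

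All samples were total RNA of normal colonic mucosa from ICR mice, an outbred stock, hybridised with 1 dye (Cy3) to Agilent mouse arrays, and every animal had been injected subcutaneously with 1,2-dimethylhydrazine (DMH), a colon carcinogen, at 20 mg/kg once a week for 20 weeks. The 3 arrays of the group butyrate with tumors and the 3 arrays of the group butyrate without tumors came from mice given DMH and, as drinking water, a solution of 1.5% butyrate, which is a short-chain fatty acid. The 3 arrays of the DMH group came from mice on normal water and normal diet, whose titles state no tumor status. The study asked which genes differed between butyrate and DMH mice, and neither mice without DMH nor mice on butyrate alone were analysed here. Titles, descriptions and source names set the 2 butyrate groups, while a separate tumor status field names the other status in each of the 6 butyrate samples and "control" for DMH, so the direction between the butyrate groups rests on the titles. The labels do not say that replicates were separate animals, so the p-values measure the spread between these samples, which may be partly technical.

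Proteins of the secretory pathway fold in the ER with the help of chaperones, lectins and disulfide isomerases. When unfolded protein accumulates there, the sensors IRE1 (which splices Xbp1 mRNA), PERK (which leads to ATF4 and CHOP, the product of Ddit3) and ATF6 switch on the genes of these helpers and of ER-associated degradation. Unfolded protein in the cytosol instead activates HSF1, which drives the heat shock proteins. Goblet and plasma cells secrete heavily, and the gut epithelium depends on the XBP1 arm.

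Some promoters of the ER group carry a DNA element through which ATF6 and XBP1 act, and these are shown because 3 of the 4 ER members called with butyrate below (Hspa5, Calr and Dnajc3) carry it. A RefSeq promoter entry (250 bases before to 50 bases after the gene's start, assembly GRCm38.p6) was at hand for 30 of the 35 genes; the others were Manf, Hspa8, Hsp90aa1, Hsp90ab1 and Atf6. The ER stress element, spelled CCAAT and CCACG with any 9 bases between them and searched on both strands, was present in 7 of these 30 genes and in 0.119% of 32851 promoters of the same length. All 7 belong to the 15 ER members, and they include members that were not called. Its shorter relative, ER stress element II, spelled ATTGG and CCACG with any 1 base between them, was present in 2 members (Dnajb11 and Herpud1) and in 0.0365% of all promoters. Its first letters, ATTGG, are the reverse complement of CCAAT, so the motifs share a box. Each line runs 5′ to 3′ along the gene's strand, with the matched letters in capitals; in Calr, Creld2 and the second Hsp90b1 stretch the match lies on the opposite strand.
Hspa5 promoter: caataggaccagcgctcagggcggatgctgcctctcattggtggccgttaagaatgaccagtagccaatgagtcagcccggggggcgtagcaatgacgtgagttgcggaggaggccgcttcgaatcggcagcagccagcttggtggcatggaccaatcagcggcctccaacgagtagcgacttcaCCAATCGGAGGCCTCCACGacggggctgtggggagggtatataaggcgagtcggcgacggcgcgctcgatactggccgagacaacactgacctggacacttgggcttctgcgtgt
Hsp90b1, first match: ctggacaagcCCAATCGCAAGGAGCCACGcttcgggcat
Hsp90b1, second match: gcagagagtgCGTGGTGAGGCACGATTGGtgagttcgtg
Calr: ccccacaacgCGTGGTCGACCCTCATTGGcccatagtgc
Canx: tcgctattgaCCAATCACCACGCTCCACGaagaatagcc
Pdia6: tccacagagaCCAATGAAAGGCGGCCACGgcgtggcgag
Dnajc3: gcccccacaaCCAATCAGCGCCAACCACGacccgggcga
Creld2: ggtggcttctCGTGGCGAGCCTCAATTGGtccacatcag
Dnajb11, element II: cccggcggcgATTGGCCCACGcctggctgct
Herpud1, element II: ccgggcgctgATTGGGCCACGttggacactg

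The Hspa5 promoter lies at chr2:34771840-34772139 on the plus strand. The stretches of Hsp90b1 lie at chr10:86705628-86705666 and chr10:86705523-86705561 on the minus strand, that of Calr at chr8:84847065-84847103 on the minus strand and that of Canx at chr11:50325790-50325828 on the minus strand. On the plus strand lie the stretches of Pdia6 (chr12:17266481-17266519), Dnajc3 (chr14:118937817-118937855), Creld2 (chr15:88819510-88819548), Dnajb11 (chr16:22857842-22857872) and Herpud1 (chr8:94386367-94386397). In the 7 carriers of the longer element the match began between 65 bases (Hspa5) and 212 bases (Hsp90b1) before the gene's start. A match of letters describes the sequence and is not a measured site of binding.

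The heat shock element, spelled GAA, TTC and GAA with any 2 bases between neighbours and searched on both strands, was present in Hsph1, Hspd1 and Hspe1 and in 0.603% of all promoters. The amino acid response element of ATF4 was spelled TGATG and AAT with any 1 base between them. It was present in 0 of the 30 members and in 0.965% of all promoters. For every element, the search covered only the promoter stretch defined above and only the spelling given. Whether genes without a match carry an element farther away or in another spelling was not tested. Hspe1 and Hspd1 are transcribed away from each other from 1 shared stretch, which is shown because these neighbours gave different values below. The Hspe1 promoter lies at chr1:55087898-55088197 on the plus strand, and in capitals are 2 overlapping matches, 1 on each strand.
Hspe1 promoter: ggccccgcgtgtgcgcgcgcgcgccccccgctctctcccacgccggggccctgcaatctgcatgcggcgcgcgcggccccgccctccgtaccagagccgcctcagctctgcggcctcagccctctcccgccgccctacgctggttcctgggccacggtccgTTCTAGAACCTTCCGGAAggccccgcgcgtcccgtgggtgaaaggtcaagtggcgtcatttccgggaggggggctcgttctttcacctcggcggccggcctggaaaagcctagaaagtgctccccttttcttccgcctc

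Values are given as log2 scaled intensity, the log2 of the spot's processed intensity minus that of the array's 75th percentile, so that 0 is the level of the 75th percentile probe. The number of arrays limits the precision. Between 57.8% (array 1 with tumors) and 72.5% (array 2 with tumors) of spots were well above background, no spot was saturated, and the 75th percentile signal was lowest in array 1 with tumors (170) and highest in array 3 with tumors (818). The arrays lay on 4 slides: slide 1 held array 1 with tumors and the 3 arrays without tumors, slide 2 held arrays 2 and 3 with tumors, slide 3 held DMH array 1 and slide 4 held DMH arrays 2 and 3. The DMH slides were also scanned on another day, so against DMH the treatment cannot be told apart from slide or scan day. The 12 epithelial markers set for the mucosa label (Epcam, Cdh1, Krt8 and Krt18 first among them) were well above background on all 9 arrays. Smooth muscle markers were measured too, and their summed level was above the epithelial one in array 1 with tumors (1166 beside 537) and in array 1 without tumors (1120 beside 900), so the markers do not tell mucosa from mucosa with deeper layers of the colon wall. The 34 members were likewise well above background on all 9 arrays, so each passed the filter on dim probes in every group and none has only a bound. Their median SD between arrays was 0.30 with tumors and 0.26 without tumors, against 0.07 in DMH, where the median over all features was 0.38, 0.27 and 0.12 in the same order of groups.

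With butyrate, 5 of the 34 members fell and 0 rose relative to DMH: Hspa5, Calr, Pdia4 and Dnajc3 of the ER group, and the inducible Hsp70 gene Hspa1b (limma, adjusted p under 0.05 over all features). At an unadjusted p under 0.05 there were 2 members higher and 12 lower. Over all features 9.45% were called, 6.32% higher and 3.13% lower, against 14.7% of the members. The median change was -0.18 over the members and 0.11 over all features. All 6 butyrate arrays lay below all 3 DMH arrays in 10 members and above them in 1 (Ddit3), while over all features 26.5% lay apart, 11.0% below and 15.5% above. In bulk mucosa, fewer cells of a type and less RNA per cell cannot be told apart. None of the 5 calls held with slide as a random block (adjusted p = 0.131 to 0.167), with DMH arrays 2 and 3 averaged, or without any 1 of the DMH arrays (0.102 to 0.167 without 1 DMH array), and none held without array 2 without tumors (0.0542 to 0.0883). Under these settings 8 to 12 members had an unadjusted p under 0.05. Leaving out the 4 butyrate arrays of slide 1 removed all 3 arrays without tumors, and only arrays 2 and 3 with tumors stood for butyrate. Slide and tumor status cannot be told apart in that setting. There 5 members were called, 3 of them shared with the 5 above (Calr, Pdia4 and Hspa1b) and the others Dnajb11 and Hsph1.

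**Figure D1:**
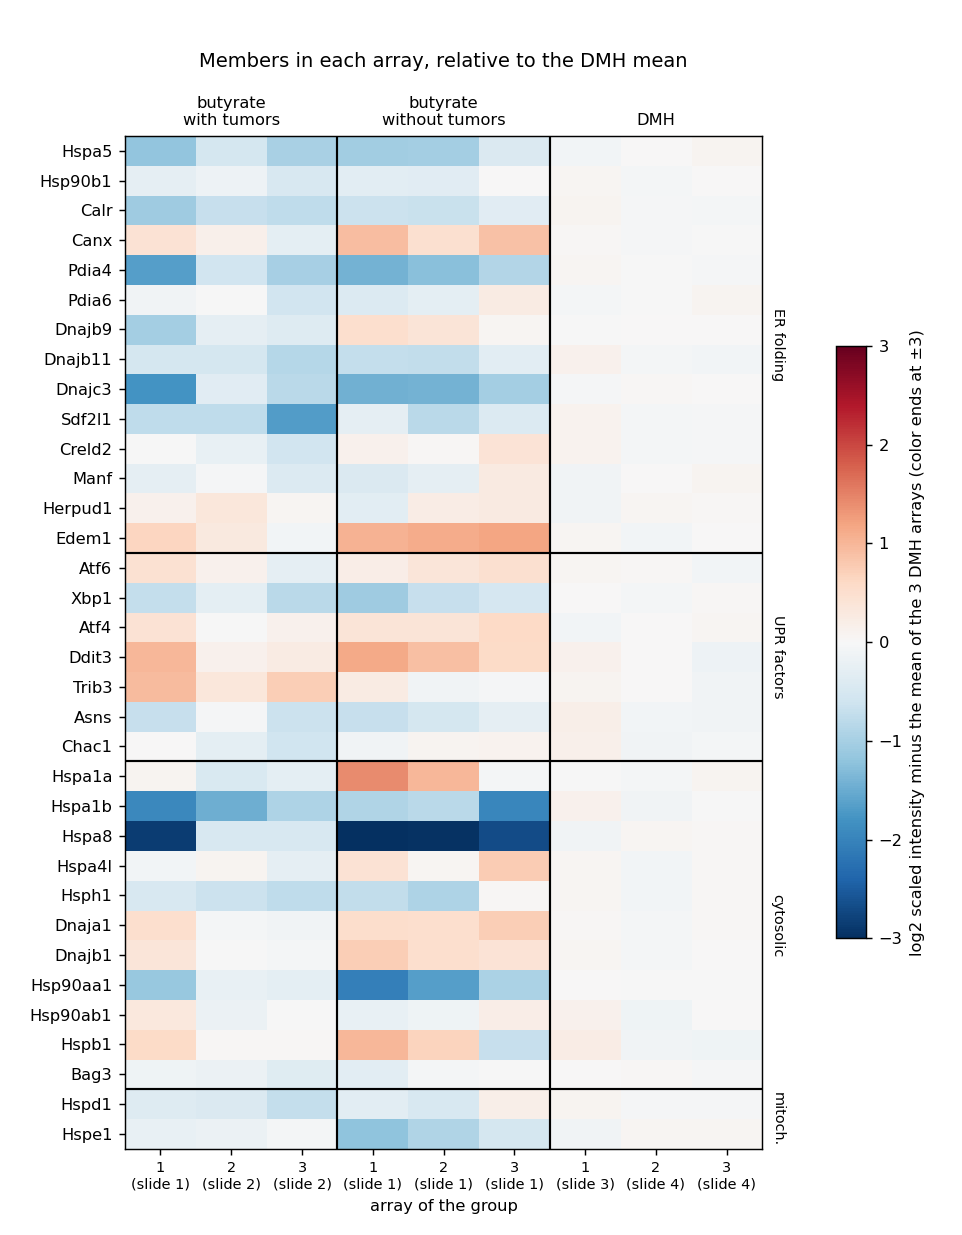
Log2 scaled intensity of each of 34 members (rows, grouped as ER folding, unfolded protein response (UPR) factors, cytosolic and mitochondrial) in each of 9 arrays (columns, with their slide), minus the mean of the 3 DMH arrays. Blue is below and red above the DMH mean, and colour ends at ±3; Hspa5, Calr, Pdia4, Dnajc3 and Hspa1b are blue in all 6 butyrate arrays, and Hspa8 is darkest in the 4 butyrate arrays of slide 1.

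Split by tumor status, 1 member fell with tumors relative to DMH (Calr), where 5.97% of all features were called, 3.87% higher and 2.11% lower, against 2.94% of the members. Without tumors, 10 members fell and 4 rose relative to DMH, 41.2% of the members, where 30.8% of all features were called, 17.2% higher and 13.6% lower. The median change of the members was -0.25 with tumors and -0.14 without tumors, beside 0.11 and 0.10 over all features. Both comparisons used the same 3 DMH arrays, so the changes are not independent of each other. With tumors, arrays lay apart from DMH above in 3 and below in 15 members (24.5% and 18.1% of all features, 42.5% in all), and without tumors above in 9 and below in 12 (33.6% and 26.3% of all features, 59.9% in all). With slide as a random block no member was called in either comparison, where 8 features with tumors and 959 without tumors were called in all, and 8 members in each had an unadjusted p under 0.05. Edem1, Hspa8 and Hsp90aa1 kept their calls in the arrays without tumors whichever of the 9 arrays was left out. With tumors, 6 members were called without array 2 of that group, and 0 without its array 3, without array 2 of the group without tumors or without any 1 DMH array (8 to 11 at an unadjusted p under 0.05). For the group without tumors, leaving out 1 DMH array, or its own array 1 or array 2, left 3 to 6 members called in place of 14.

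**Figure D2:**
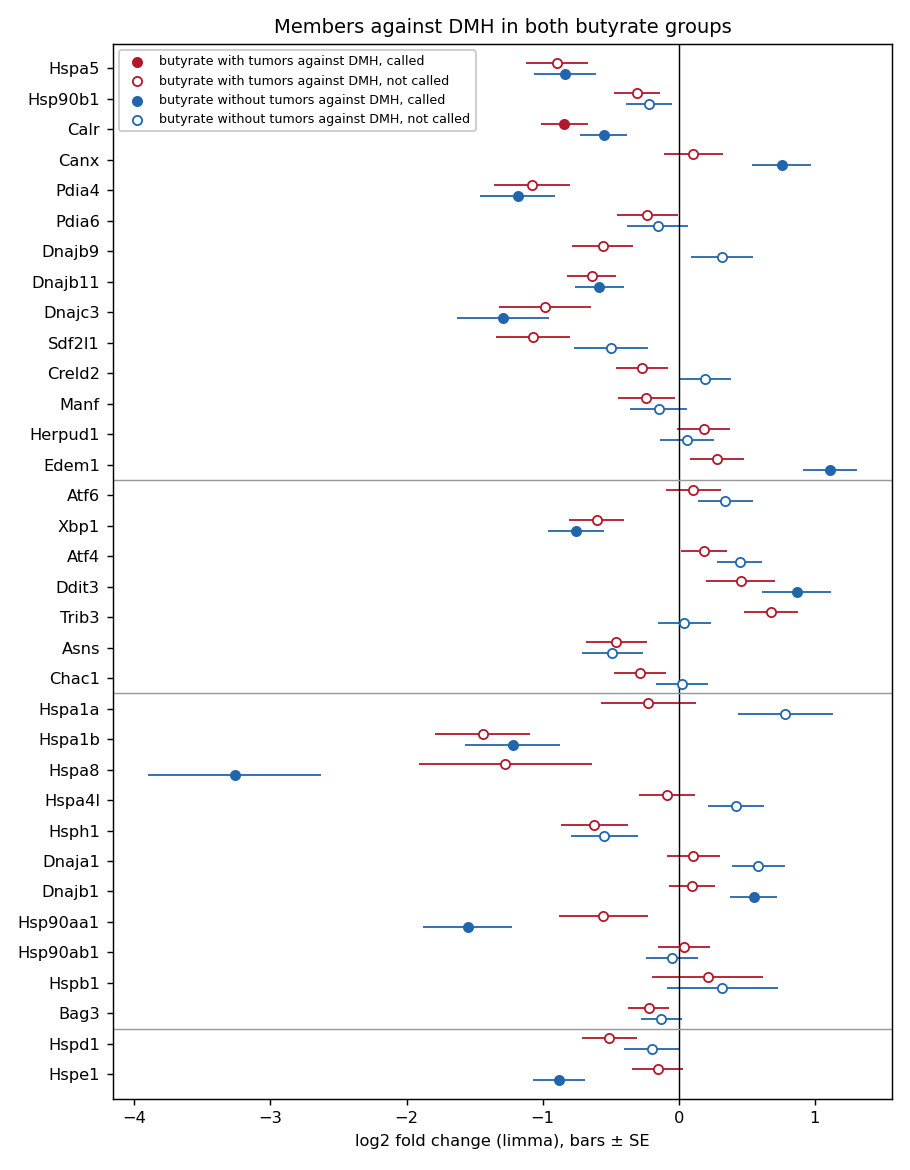
Log2 fold change against DMH (limma, bars ± SE) of each member with tumors (red) and without tumors (blue), filled where called. With tumors the changes run from -1.44 (Hspa1b) to 0.68 (Trib3) and without tumors from -3.26 (Hspa8) to 1.11 (Edem1).

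Among the luminal ER chaperones BiP, calreticulin and the isomerase Pdia4 fell with butyrate. Of 14 ER members measured, 4 fell and 0 rose with butyrate (median -0.23), and without tumors 5 fell and 2 rose (median -0.18). These are 28.6% and 50% of the ER members, beside 9.45% and 30.8% of all features. Hspa5 encodes BiP, the Hsp70 of the ER lumen and the standard readout of ER stress. Its log2 scaled intensity was 4.15, 4.79 and 4.35 with tumors and 4.27, 4.32 and 4.88 without tumors, against 5.24, 5.34 and 5.40 in DMH. Every butyrate array lay below every DMH array, and the butyrate groups overlapped each other. Hspa5 fell by 0.87 ± 0.20 (SE) on the log2 scale with butyrate, 1.82-fold lower (adjusted p = 0.0361; 0.0202 to 0.155 over the alternatives tried). By group it was -0.90 ± 0.23 with tumors (adjusted p = 0.055) and fell by 0.84 ± 0.23 without tumors (adjusted p = 0.0268).

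Calr, the calcium-binding lectin chaperone of the lumen, measured 4.72, 5.10 and 5.03 with tumors and 5.15, 5.11 and 5.45 without tumors, against 5.87, 5.76 and 5.73 in DMH. No butyrate array reached the DMH range, and the arrays with tumors were all below those without tumors. Calr was the only member called in all 3 comparisons with DMH: it fell by 0.70 ± 0.18 with butyrate (adjusted p = 0.0445), by 0.84 ± 0.17 with tumors (0.0383) and by 0.55 ± 0.17 without tumors (0.0414). Pdia4, a disulfide isomerase, measured 2.07, 3.16 and 2.73 with tumors and 2.32, 2.46 and 2.86 without tumors, against 3.79, 3.71 and 3.69 in DMH. Its fall of 1.13 ± 0.24, or 2.19-fold, with butyrate had the smallest adjusted p of the members (0.0304), and all butyrate arrays lay clear of DMH. Without tumors Pdia4 fell by 1.18 ± 0.28 (adjusted p = 0.0163), and with tumors the change was -1.08 ± 0.28 (0.0556).

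The DnaJ cochaperones of the lumen differed among themselves. Dnajc3, which encodes p58IPK, an inhibitor of PERK that also serves BiP, measured 0.19, 1.65 and 1.19 with tumors and 0.55, 0.57 and 0.98 without tumors, against 1.95, 2.03 and 1.99 in DMH. All 6 butyrate arrays were below DMH, and the 4 on slide 1 were below the 2 on slide 2. Dnajc3 fell by 1.14 ± 0.30 with butyrate, 2.20-fold (adjusted p = 0.0457), by 1.29 ± 0.34 without tumors (0.0229), and was -0.98 ± 0.34 with tumors (0.102). With the 4 butyrate arrays of slide 1 left out, only arrays 2 and 3 with tumors remained. Their change against DMH was -0.57 (adjusted p = 0.0816, in a range of 0.0216 to 0.167 over the alternatives tried). Dnajb11, the BiP cochaperone ERdj3, measured 3.68, 3.67 and 3.36 with tumors and 3.50, 3.48 and 3.90 without tumors, against 4.34, 4.15 and 4.13 in DMH. Again no butyrate array reached DMH; Dnajb11 fell by 0.58 ± 0.18 without tumors (adjusted p = 0.0403) and just missed the threshold for all butyrate arrays (-0.61 ± 0.17, 0.0504).

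**Figure D3:**
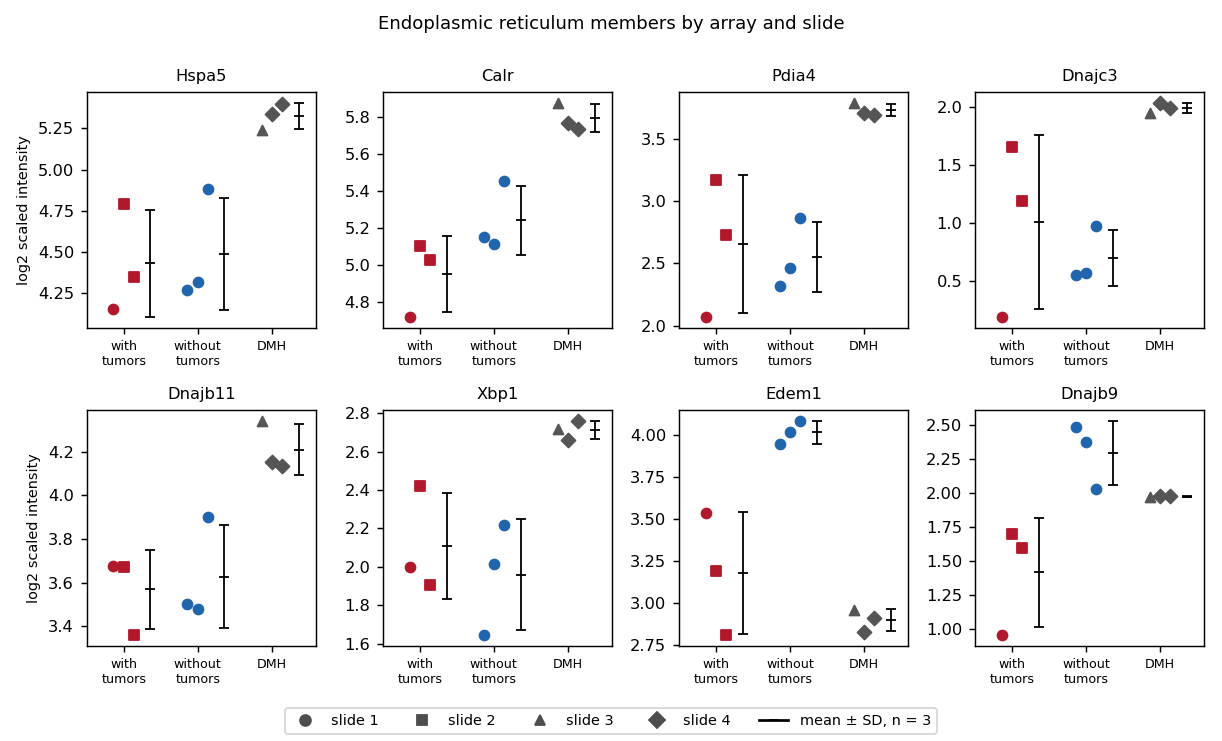
Log2 scaled intensity of 8 ER and unfolded protein response members in each array, with the mean ± SD of each group (n = 3) beside the points and the slide shown by marker; each panel has its own axis range. Hspa5, Calr, Pdia4, Dnajc3, Dnajb11 and Xbp1 lie below DMH in all 6 butyrate arrays, while Edem1 and Dnajb9 are higher without tumors than with tumors.

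The degradation factor Edem1 rose in the arrays without tumors, and the membrane lectin Canx differed in sign between its probes. Canx, the membrane-bound partner of Calr, measured 4.39, 4.10 and 3.66 with tumors and 4.87, 4.43 and 4.82 without tumors, against 3.98, 3.92 and 3.94 in DMH. The arrays without tumors lay above all others, and those with tumors straddled DMH. Canx rose by 0.76 ± 0.22 without tumors (adjusted p = 0.0308) at this probe, while the other Canx probes gave the opposite sign, as given below. Edem1, which delivers misfolded glycoproteins to degradation, measured 3.54, 3.19 and 2.81 with tumors and 3.95, 4.01 and 4.09 without tumors, against 2.96, 2.83 and 2.91 in DMH. Without tumors it was higher in every array than in any other group, by 1.11 ± 0.20, or 2.17-fold (adjusted p = 0.00643). Leaving out any 1 array kept the Edem1 call without tumors (adjusted p from 0.00114 to 0.0332), and slide as a random block ended it (0.0709). As the mean of its 3 probes the change was 0.52 (adjusted p = 0.0302).

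Dnajb9, or ERdj4, a target of XBP1 that helps degradation, measured 0.96, 1.70 and 1.60 with tumors and 2.48, 2.37 and 2.03 without tumors, against 1.97, 1.98 and 1.98 in DMH. DMH lay between the butyrate groups, with no overlap on either side. Neither difference from DMH was called (-0.56 ± 0.22 with tumors and 0.32 ± 0.22 without tumors), while the butyrate groups differed from each other, as given below.

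Of the remaining 6 ER members none was called in any comparison. Sdf2l1, a stress-induced BiP partner, came nearest: it measured 1.90, 1.91 and 0.99 with tumors and 2.41, 1.86 and 2.26 without tumors, against 2.77, 2.61 and 2.65 in DMH, with no overlap with DMH (-1.07 ± 0.27 with tumors, adjusted p = 0.0547). Hsp90b1, the ER Hsp90 also known as GRP94, was -0.26 ± 0.16 with butyrate and the isomerase Pdia6 was -0.19 ± 0.20. Creld2 (-0.04), the secreted stress factor Manf (-0.19) and the degradation scaffold Herpud1 (0.12) also overlapped DMH. Among the 7 carriers of the ER stress element shown above, Hspa5, Calr and Dnajc3 fell with butyrate, and Hsp90b1, Canx, Pdia6 and Creld2 were not called; their changes ran from -1.14 to 0.43. Of the 2 carriers of element II, Dnajb11 fell without tumors, and Herpud1 was at 0.06 in the same comparison.

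Of the 7 unfolded protein response factors and targets none was called with butyrate (median 0.22), and without tumors Ddit3 rose and Xbp1 fell. These are 0% and 28.6% of the 7, beside 9.45% and 30.8% of all features, so the count without tumors is near the share over the array. Xbp1 encodes the transcription factor that IRE1 activates by splicing; the array measures its total mRNA and not the splice form. It measured 2.00, 2.42 and 1.91 with tumors and 1.65, 2.01 and 2.22 without tumors, against 2.72, 2.66 and 2.76 in DMH. All butyrate arrays were below DMH in both groups, and Xbp1 fell by 0.75 ± 0.20 without tumors (adjusted p = 0.0264), with -0.60 ± 0.20 with tumors (0.0994) and -0.68 ± 0.19 for all butyrate arrays (0.0526).

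Ddit3 encodes CHOP, the transcription factor that links unresolved ER stress to cell death. It measured 0.11, -0.75 and -0.62 with tumors and 0.26, 0.02 and -0.29 without tumors, against -0.75, -0.85 and -1.02 in DMH. The 4 arrays of slide 1 were the highest, and array 2 with tumors lay just above the highest DMH array. Ddit3 rose by 0.87 ± 0.26 without tumors (adjusted p = 0.0342), against 0.46 ± 0.26 with tumors (0.259). Without the slide 1 arrays, only arrays 2 and 3 with tumors were left. Their change against DMH was 0.19 (adjusted p = 0.322), beside 0.66 ± 0.25 for all butyrate arrays (0.111). Atf4, the factor upstream of Ddit3 on the PERK arm, measured 2.04, 1.58 and 1.72 with tumors and 1.97, 1.97 and 2.18 without tumors, against 1.52, 1.61 and 1.65 in DMH. Its change was 0.45 ± 0.17 without tumors (adjusted p = 0.0729) and 0.19 ± 0.17 with tumors (0.482); slide 1 was again high.

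The ATF4 targets did not follow 1 direction. Trib3, a pseudokinase induced by CHOP, measured -0.74, -1.36 and -0.96 with tumors, above all arrays without tumors (-1.45, -1.79 and -1.72) and all DMH arrays (-1.62, -1.68 and -1.80), with 0.68 ± 0.20 against DMH (adjusted p = 0.0705). Asns, asparagine synthetase, was -0.47 ± 0.20 with butyrate (adjusted p = 0.138). Chac1, a glutathione-degrading enzyme, was -0.13 ± 0.19 and the sensor Atf6 0.22 ± 0.19, and neither separated butyrate from DMH.

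Of 11 cytosolic members 1 fell with butyrate (Hspa1b) and 0 rose (median -0.00), and without tumors 3 fell and 1 rose (median -0.05). These are 9.09% and 36.4% of the cytosolic members, near the 9.45% and 30.8% called over all features. Hspa8 encodes Hsc70, the constitutive cytosolic Hsp70, and had the widest spread of the members. It measured 3.24, 5.60 and 5.61 with tumors and 1.95, 3.13 and 3.40 without tumors, against 5.99, 6.15 and 6.13 in DMH. The 4 arrays of slide 1 were at 3.40 or below, and the 2 of slide 2 were near 5.6, closer to DMH than to array 1 of their own group. Hspa8 fell by 3.26 ± 0.64 without tumors, 9.60-fold (adjusted p = 0.00888; 0.000773 to 0.0916 over the alternatives tried), against -1.27 ± 0.64 with tumors (0.214). Without slide 1, which held all arrays without tumors, only arrays 2 and 3 with tumors were left. Their change against DMH was -0.48 (adjusted p = 0.0523), beside -2.27 ± 0.77 for all butyrate arrays (0.0838).

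Hsp90aa1, the inducible cytosolic Hsp90, was also lower in the 4 arrays of slide 1 than in the other butyrate arrays. It measured 4.48, 5.39 and 5.32 with tumors and 3.57, 3.96 and 4.68 without tumors, against 5.63, 5.61 and 5.62 in DMH. All butyrate arrays were below DMH, those of slide 2 the least, and Hsp90aa1 fell by 1.55 ± 0.33 without tumors, 2.93-fold (adjusted p = 0.0114). Without slide 1, that is in arrays 2 and 3 with tumors alone, the change against DMH was -0.26 (adjusted p = 0.125). The constitutive partner Hsp90ab1 was at -0.00 ± 0.18 with butyrate and ranged from 5.94 to 6.48 over the 9 arrays, with the groups overlapping throughout.

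The stress-inducible Hsp70 genes Hspa1a and Hspa1b lie side by side and code for nearly the same protein, so cross-hybridisation between their probes was not tested and their values are uncertain. Hspa1b measured -2.48, -2.01 and -1.47 with tumors and -1.44, -1.36 and -2.50 without tumors, against -0.42, -0.65 and -0.57 in DMH. Every butyrate array was below DMH whatever its slide, and Hspa1b fell by 1.33 ± 0.30, or 2.52-fold, with butyrate (adjusted p = 0.0339). By group it fell by 1.22 ± 0.35 without tumors (adjusted p = 0.0316) and was -1.44 ± 0.35 with tumors (0.0501). Hspa1a, in contrast, measured 0.49, -0.04 and 0.12 with tumors and 1.83, 1.41 and 0.34 without tumors, against 0.40, 0.35 and 0.48 in DMH. Arrays 1 and 2 without tumors stood above all others and array 3 did not, and the change was 0.78 ± 0.35 without tumors (adjusted p = 0.117) and -0.22 ± 0.35 with tumors (0.694).

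Dnajb1, the Hsp40 that pairs with inducible Hsp70, measured 3.29, 2.91 and 2.88 with tumors and 3.67, 3.43 and 3.34 without tumors, against 2.98, 2.86 and 2.94 in DMH. It was higher in every array without tumors than in any other array, and rose by 0.55 ± 0.17 (adjusted p = 0.0416). Hspb1, the small heat shock protein Hsp27, measured 4.67, 4.11 and 4.11 with tumors and 5.07, 4.76 and 3.39 without tumors, against 4.31, 3.99 and 3.95 in DMH. Array 3 without tumors was the lowest of all 9 and array 1 of that group the highest, and no difference was called (0.27 ± 0.34 with butyrate).

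**Figure D4:**
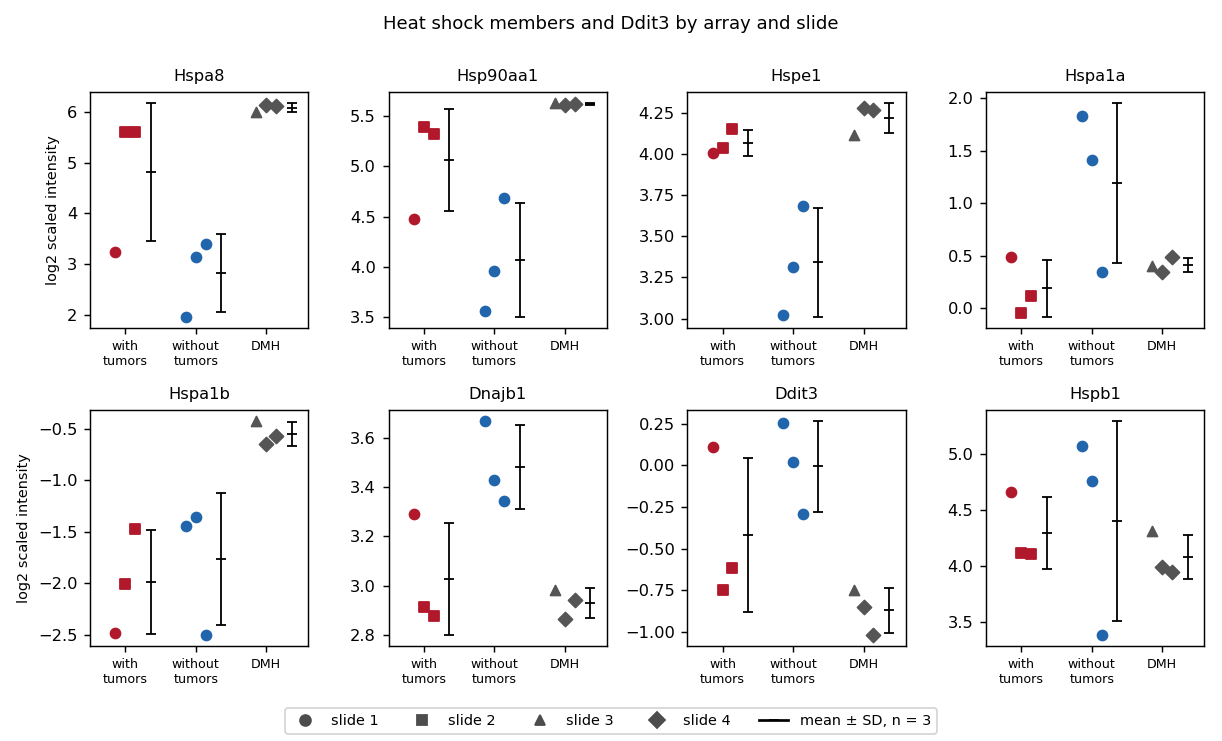
Log2 scaled intensity of 7 cytosolic and mitochondrial members and of Ddit3 in each array, with the mean ± SD of each group (n = 3) beside the points and the slide shown by marker; each panel has its own axis range. In Hspa8 and Hsp90aa1 the slide 1 array with tumors sits nearer the arrays without tumors than the slide 2 arrays do; Hspa1b is below DMH on both slides.

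Of the other cytosolic members, the Hsp110 genes Hsph1 (-0.58 ± 0.22 with butyrate) and Hspa4l (0.17 ± 0.23), the Hsp40 gene Dnaja1 (0.35 ± 0.22) and the cochaperone Bag3 (-0.17 ± 0.15) were not called. Dnaja1 without tumors came close, at 0.59 ± 0.19 (adjusted p = 0.0508).

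In mitochondria Hspd1 (Hsp60) and Hspe1 (Hsp10) form 1 folding chamber, and their genes share the promoter stretch shown above. Hspe1 measured 4.0, 4.04 and 4.15 with tumors and 3.02, 3.31 and 3.69 without tumors, against 4.11, 4.28 and 4.27 in DMH. The arrays without tumors were all below the rest, and array 3 with tumors reached the DMH range. Hspe1 fell by 0.88 ± 0.19 without tumors (adjusted p = 0.0125), against -0.15 ± 0.19 with tumors (0.608). Hspd1 measured 4.84, 4.80 and 4.51 with tumors and 4.92, 4.75 and 5.41 without tumors, against 5.30, 5.18 and 5.20 in DMH. It was below DMH in 5 of 6 butyrate arrays and above it in array 3 without tumors, and was not called (-0.51 ± 0.20 with tumors, adjusted p = 0.136).

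Between the butyrate groups 3 members differed, Hspe1 higher and Dnajb9 and Edem1 lower with tumors than without tumors, or 8.82% of the members, where 13.2% of all features were called, 7.16% higher and 6.03% lower. With the authors' deposited values the split was 0 higher and 9 lower, and with normexp correction 2 and 2. Hspe1 was higher by 0.72 ± 0.19 (adjusted p = 0.0429), Dnajb9 lower by 1.84-fold (-0.88 ± 0.22, 0.0412) and Edem1 lower by 1.78-fold (-0.83 ± 0.20, 0.0336). Arrays with tumors lay apart above those without tumors in 2 members and below them in 6, where 17.5% and 15.8% of all features did, 33.3% in all. Over the alternatives tried the adjusted p ran from 0.0156 to 0.273 for Hspe1, from 0.00761 to 0.121 for Dnajb9 and from 0.00606 to 0.317 for Edem1. Without array 1 with tumors 11 members were called, 4 higher and 7 lower. No member was called by limma without array 1 or 2 of the group without tumors, without array 3 with tumors or without any 1 DMH array, where 4 to 10 members had an unadjusted p under 0.05. The median difference was -0.10 over the members and 0.02 over all features.

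Slide and tumor status overlap only on slide 1, where array 1 with tumors can be set against the 3 arrays without tumors, its spread taken from the other arrays. With 1 array on that side, tumor status cannot be told apart from that sample, which also had the lowest 75th percentile signal. Within slide 1 the difference was -1.33 in Dnajb9 (adjusted p = 0.00946), -0.48 in Edem1 (0.143) and 0.66 in Hspe1 (0.131). Trib3 was at 0.91 there (adjusted p = 0.0377), against 0.64 ± 0.20 over both slides (0.0639). With slide as a fixed block no member was called (Dnajb9 -1.33, adjusted p = 0.0637, with 2 members at an unadjusted p under 0.05). All 4 arrays of slide 1 were above both arrays of slide 2 in 10 members (29.4%), against 20.9% of all features. Those 10 were Canx, Creld2, Edem1, Atf6, Atf4, Ddit3, Chac1, Hspa1a, Dnaja1 and Dnajb1, and they hold all 4 members that rose without tumors. Because 3 of the 4 arrays of slide 1 are the arrays without tumors, that overlap follows in part from the layout. Slide 1 was below slide 2 in 4 members (11.8%), Dnajc3, Hspa8, Hsp90aa1 and Hspe1, against 23.5% of all features. The part of the slide in these values was not tested beyond this.

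Of the 34 members 17 had more than 1 probe kept, and the results above use the probe whose mean over the 9 arrays was highest. All probes of a gene had 1 sign in 9 of the 17 genes for butyrate against DMH and in 12 for the arrays without tumors against DMH; adjusted p-values here are over all 28521 probes. Canx was the sharpest disagreement: its other probes gave -1.75 (adjusted p = 0.00785) and -1.78 (0.0471) without tumors against DMH where the brightest gave 0.76. The mean of the 3 Canx probes was -0.92 (adjusted p = 0.0422), so no direction can be given for Canx. The 2 dimmer probes of Pdia6 fell by 0.76 and 1.09 with butyrate (adjusted p = 0.0454 and 0.0351), while its brightest was at -0.19. The 2 dimmer probes of Dnajb9 differed between the butyrate groups as the brightest did (-0.99 and -1.09, adjusted p = 0.013 and 0.012), and both rose without tumors against DMH (0.65 and 0.82).

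The second probe of Calr fell by 1.01 with butyrate (adjusted p = 0.039), and the second probe of Hspa8 by 1.00 (0.0368) and by 1.15 without tumors (0.0131), a smaller change than at the brightest probe. A second Dnajc3 probe fell by 1.51 with butyrate (adjusted p = 0.0424), while its 2 dimmest probes were at -0.11 and -0.22. The other Edem1 probes gave 0.20 and 0.25 without tumors against DMH, neither called, against 1.11 at the probe used. The second probe of Dnajb1 gave 0.15 there, that of Hspa1b -0.66 and that of Hspa1a 0.11, none of them called. Second probes of Atf6 (0.61, adjusted p = 0.0393) and Hspa4l (0.63, 0.0464) rose without tumors where the probes used were not called. Probes of Hsp90b1, Trib3, Hspa4l and Dnaja1 differed in sign there with no probe called lower. For all butyrate arrays against DMH, probes of both signs were found in 8 of the 17 genes, Canx, Dnajb9, Edem1, Trib3, Hspa1a, Hspa4l, Dnaja1 and Dnajb1.

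**Figure D5:**
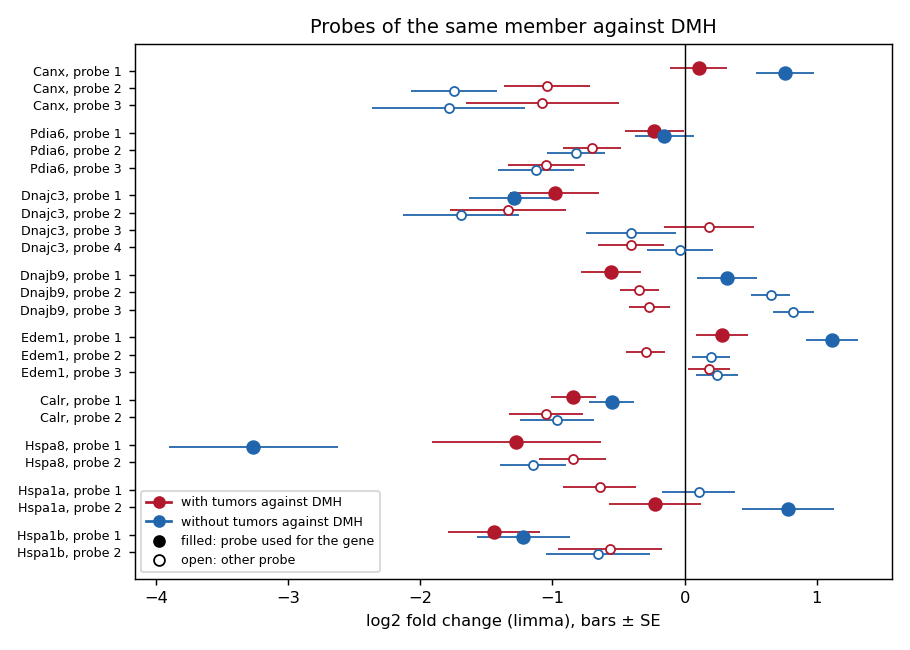
Log2 fold change against DMH (limma, bars ± SE) at each kept probe of 9 members, with tumors in red and without tumors in blue; filled points are the probes used for the gene. Canx probes fall on both sides of 0, while the probes of Calr and Hspa8 lie below 0 in both groups.

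Other genes of the same pathways, from lists chosen with earlier results of these data known, gave mixed counts, to be read beside the 9.45% of all features called with butyrate and the 30.8% called without tumors. Of 15 sensors, proteases and regulators of the unfolded protein response, Creb3l3, a membrane-bound transcription factor of the ATF6 type, rose by 1.24 ± 0.28 with butyrate, and Atf6b fell by 0.71 ± 0.15 (adjusted p = 0.0343 and 0.0300). Without tumors 6 fell and 1 rose; among those that fell were Ppp1r15a (-1.48 ± 0.24), which restores translation after stress, and Nfe2l1 (-1.09 ± 0.24). Ern2, the IRE1 form of mucus-secreting epithelium, was lower with tumors than without tumors (-1.37 ± 0.28, adjusted p = 0.0245). Of 38 genes of ER folding, translocation and glycosylation 1 fell with butyrate and 0 rose: Agr2, the isomerase that folds mucin, by 1.44 ± 0.37 (adjusted p = 0.0439). Sec61a1, the translocation channel, fell without tumors by 3.41 ± 0.62 at its brightest probe, while its other probes gave 0.77 and -0.82. Of 18 genes of ER-associated degradation, Edem2 (-0.88 ± 0.17) and Derl3 (-0.83 ± 0.19) fell with butyrate and Herpud2 rose (0.81 ± 0.21, with 0.02 at its other probe).

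Of 19 further ATF4 targets Nupr1 was the 1 called with butyrate, and it fell by 1.03 ± 0.21 (adjusted p = 0.0287). The serine synthesis genes Phgdh (-1.19 ± 0.21) and Psat1 (-0.69 ± 0.22) fell without tumors against DMH and were higher with tumors than without tumors by 0.95 ± 0.21 and 0.84 ± 0.22. Cth of the same list went the other way between the butyrate groups, lower with tumors (-1.33 ± 0.22, limma adjusted p = 0.0156). Of 29 other cytosolic chaperones and heat shock factors Bag1 fell with butyrate (-0.60 ± 0.15), and without tumors 6 rose and 5 fell (37.9%, near the 30.8% of all features), among them the Hsp40 gene Dnajb4 (1.29 ± 0.22) and the Hsp110 gene Hspa4 (-2.10 ± 0.42, although 1 of its other probes gave 0.05). The cytosolic chaperonin TRiC and its helper prefoldin, which fold actin and tubulin, had 0 of 14 called with butyrate by limma (median -0.44), with 1 higher and 8 lower at an unadjusted p under 0.05. Without tumors 8 of the 14 fell and 1 rose, 64.3% of the list, beside 30.8% of all features, among them Pfdn2 (-1.20 ± 0.14, adjusted p = 0.00153), Tcp1 (-1.11 ± 0.24) and Pfdn1 (-2.12 ± 0.50), with Vbp1 the exception (1.08 ± 0.26). Trap1, the mitochondrial Hsp90, fell in all 3 comparisons with DMH, by 0.78 ± 0.16 with butyrate (adjusted p = 0.0288).

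Markers of secretory cells were measured beside these results. Their counts with butyrate stand beside 9.45% of all features called, 6.32% higher and 3.13% lower. Of 11 goblet cell markers 6 (54.5%) fell and 0 rose with butyrate (median -1.81). Among the defining ones Tff3 (-2.09 ± 0.42), Fcgbp (-2.04 ± 0.44) and Clca1 (-1.56 ± 0.37) fell. Muc2 was not called (-1.81 ± 0.50, limma adjusted p = 0.0522), and its other probes gave -0.33 and -0.22. Sums of a list are on the scale where the 75th percentile is 1. The goblet cell sums were 236 to 828 with tumors and 421 to 596 without tumors, against 1432 to 1559 in DMH. Of 10 plasma cell markers, 2 of which (Xbp1 and Derl3) also stand in the ER lists, 3 fell with butyrate, and their sums were 52.7 to 90.3 with tumors and 26.5 to 38.1 without tumors, against 89.8 to 97.0 in DMH. The sums of the 14 ER members were 175 to 222 with tumors and 210 to 272 without tumors, against 266 to 276 in DMH. Array 3 without tumors had 272 for the ER members and 596 for the goblet cell markers. Of 12 smooth muscle markers 2 (16.7%) rose with butyrate, and all 12 had positive changes (median 1.11). Their sums were 602 to 1166 with tumors and 497 to 1120 without tumors, against 309 to 541 in DMH. Of 12 epithelial markers 3 (25.0%) fell with butyrate, and their sums were 537 to 874 with tumors and 774 to 957 without tumors, against 1220 to 1398 in DMH. Of 12 immediate early genes, which respond to handling of tissue, 1 rose with butyrate (8.33%, near the 9.45% of all features called). All defining markers of these lists were measured above background, none at 0, and the part of cell composition in the member results was not tested.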

How the data were processed

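Total RNA of 9 samples of mouse colonic mucosa (3 per group by title) was measured on 1-colour Agilent arrays of 43379 spots, beside 1639 control spots that were left out, for 41174 probes. The deposited scanner files hold spot intensity from Agilent Feature Extraction 10.5.1.1, per the submitters' processing notes, background-subtracted within the array and not scaled between arrays, per the file headers. The authors' deposited value table holds log2 values that equalled log2 of the processed intensity minus 1 constant per array (SD of the difference at most 0.00807 over 21829 probes); its column medians were 2.71 to 3.20, and how the constants were set is not given in the sources used here.

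From the intensities, log2 was taken per spot, and spots flagged as outliers were left out (74 to 234 per array). The log2 values of a probe's spots were averaged, and the array's 75th percentile over probes was subtracted. The 28521 probes kept were well above background on at least 3 arrays with at least 2 values per group, 8 fewer than passed the first condition alone. Probes were named through their accession (26933 had 1 gene symbol, 14241 none). The DMH files carry another annotation version, with another accession for 4725 probes and none of them a member probe. Each gene was represented by its brightest probe (mean of the 9 arrays), for 21964 features, 6618 of them unnamed.

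Tests were two-sided limma fits (limma 3.58.1, statmod 1.5.0, R 4.3.3) over all features with Benjamini-Hochberg adjustment, called at an adjusted p under 0.05. The 6 butyrate arrays against DMH were fitted as 2 groups, and the other comparisons came from 1 fit of 3 groups. The fit was tested on simulated normal data with the same SD in all groups for a feature and no slide effect. That test does not cover the slides or the unequal spread of the groups here. Tables and plots used Python 3.11.15 (pandas 2.3.3, numpy 2.4.6, matplotlib 3.10.9). DMH arrays 2 and 3 differed with an SD of 0.207 over 237 probes with at least 8 spots. From the spread of duplicate spots within the arrays, an SD of 0.0957 was expected for that difference. This does not tell separate RNAs from repeat hybridisations of one. Both arrays were counted as separate samples because the labels list them so. Averaging them as an alternative left 9 features called with butyrate in place of 2076. Alternatives were quantile scaling, normexp correction (offset 50) with quantile scaling, the authors' table, no filter, the mean of probes, blocks by replicate number or slide, arrays left out, other sets of groups in the fit, DMH arrays 2 and 3 averaged and, added after seeing the data, the 75th percentile over spots.

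The members and the other gene lists were chosen with earlier results of these data known. Values in every array were given for members called in any comparison and for 11 preset members whatever they did. Genes of the other pathway lists were named from up to 4 called per comparison by smallest p, and from those called against the list's majority. Not all of these were named. As markers of a cell type only genes among the first 4 of a list were named, and not all of these. The arrays have no genome build; promoter sequences are from RefSeq, assembly GRCm38.p6.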

Additional observations from a re-analysis of the deposited data

Results flagged for a closer look

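In 3 members the change against DMH with tumors differed from the change without tumors, by the limma contrast of the butyrate groups. The difference was -0.88 in Dnajb9 (ERdj4), -0.83 in Edem1 and 0.72 in Hspe1 (Hsp10), on the log2 scale. The arrays with tumors lay below all arrays without tumors in Dnajb9 and Edem1, and above them in Hspe1. Within slide 1 the differences were -1.33, -0.48 and 0.66 in the same order, and the part of the slide was not tested beyond that. No array stood apart by Dixon's test in the 6 butyrate arrays for any called member.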

How the results depend on the processing

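Members called, beside 5 for butyrate against DMH, were 3 with quantile scaling or the mean of probes, 11 with 1 fit of 3 groups, and 0 with no filter, a replicate block, slide as a random block or DMH arrays 2 and 3 averaged (limma; 9 to 13 at an unadjusted p under 0.05). With tumors, beside 1, they were 2 with normexp, 8 with the authors' table, and 0 with no filter, a replicate block, slide as a random block, only the 2 groups compared or DMH arrays averaged (8 to 12 unadjusted). Without tumors, beside 14, they were 6 with no filter, 0 with slide as a random block (8 unadjusted) and 3 with DMH arrays averaged. Between the butyrate groups, beside 3, they were 9 with the authors' table, 1 with slide as a random block, 2 by quantile scaling, mean of probes or within slide 1, and 0 with no filter, slide as a fixed block or only the 2 groups (2 to 9 unadjusted). Leaving out 1 array gave 0 to 8, 0 to 6, 3 to 16 and 0 to 11 in these comparisons.

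Over all features, 2076 called with butyrate became 1197 with the authors' table, 529 with no filter, 710 with a replicate block, 16 with slide as a random block, 5123 with 1 fit of 3 groups and 9 with DMH arrays averaged (6 to 3723 without 1 array). With tumors 1312 became 222 with no filter, 688 with a replicate block, 8 with slide as a random block, 357 with only the 2 groups and 4 with DMH arrays averaged (4 to 1843). Without tumors 6768 became 959 with slide as a random block and 2890 with DMH arrays averaged (2852 to 9992). Between the butyrate groups 2896 became 4382 with the authors' table, 1396 with no filter, 557 with slide as a fixed block and 0 with only the 2 groups, where 5828 had an unadjusted p under 0.05 (209 to 7732).

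The replicate numbers share only a number: same-number correlations of deviations were -0.01 to 0.26. With the replicate block 13 of 23 called member results kept their call.

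Canx without tumors turned to -0.92 with the mean of its probes. Of the 23 called member results 23 kept their call with the percentile over spots, 16 with quantile scaling or normexp, 18 with the authors' table and 1 (Dnajb9 between the butyrate groups) with slide as a random block. Higher and lower calls over all features were 1389 and 687 with butyrate, but 1087 and 714 with quantile scaling, 858 and 880 with normexp and 469 and 728 with the authors' table. With tumors 849 and 463 became 435 and 484, 450 and 651, and 414 and 1542 in that order of settings, and between the butyrate groups 1572 and 1324 became 924 and 1457, 1029 and 1686, and 633 and 3749. Without tumors 3782 and 2986 became 3777 and 1851 with the authors' table. With that table the median change of all features was 0.08 with butyrate, -0.11 with tumors, 0.25 without tumors and -0.36 between the butyrate groups, in place of 0.11, 0.11, 0.10 and 0.02. The causes were not tested. All 34 members were well above background on all arrays.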

Other observations

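Markers of other cell types, chosen with earlier results of these data known, differed between the groups. Of 5 neutrophil markers measured, 4 were called higher with tumors than without tumors and 0 lower (limma, also 0 lower at an unadjusted p under 0.05). Among all features 7.16% were called higher and 6.03% lower. Of the defining ones S100a8 and Ltf were not well above background in any array without tumors, so they passed the filter through the other groups and no size is given for them. S100a8 is among the 4 called, so that count and the sums below rest in part on such dim values. The summed level of the 5 markers, dim values included, on the scale where the 75th percentile is 1, was 0.628 to 6.22 with tumors and 0.136 to 0.354 without tumors, against 3.89 to 4.20 in DMH. S100a9, an alarmin of neutrophils, was higher with tumors by 3.51 ± 0.97 (SE, adjusted p = 0.048, limma), and fell by 4.82 ± 0.97 without tumors against DMH (adjusted p = 0.00965). The sums with tumors spanned those of DMH, and those without tumors lay below both other groups.

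Of 12 markers of enteric neurons and glia, 3 (25.0%) rose with butyrate and none fell (median 1.16), where 6.32% of all features were called higher. Their sums were 4.16 to 12.9 with tumors and 6.75 to 11.8 without tumors, against 3.49 to 4.33 in DMH. Vip, a neuropeptide of enteric neurons, rose by 1.19 ± 0.26 with butyrate (adjusted p = 0.0313). Array 2 with tumors, at 4.16, lay in the DMH range. Of 9 fibroblast markers 0 were called with butyrate by limma, with 1 higher and 1 lower at an unadjusted p under 0.05, and their sums were 124 to 149 with tumors and 69.8 to 196 without tumors, against 130 to 143 in DMH. Fosb, an immediate early gene that responds to handling of tissue, rose by 1.31 ± 0.22 with butyrate (adjusted p = 0.0218), while Fos, Jun and Junb were not called (0.43, 0.24 and 0.07).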
